A study of Mus musculus with 13 samples.

Results

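The factors described here are 10 ligands through which Sertoli cells can act on spermatogonial stem cells, namely *Gdnf*, *Kitl*, *Cxcl12*, *Fgf2*, *Fgf8*, *Csf1*, *Wnt5a*, *Wnt3*, *Wnt4* and *Nrg1*. They were chosen as a list of paracrine signals and found by their exact symbols, and all 10 were among the 27111 named features of the deposited table. Of these ligands, 5 (*Kitl*, *Gdnf*, *Wnt4*, *Wnt3* and *Wnt5a*) had enough counts to enter the test, which covered 14421 genes, and the other 5 are described by their counts. The RNA came from Sertoli cells of adult males of the Bl6 wt genotype (C57Bl/6J by the methods, 3 to 5 months old), 6 of them undisturbed controls (CTRL) and 7 exposed to MSUS, each sequenced as its own library. In MSUS, pups were taken from the dam for 3 h on each of postnatal days 1 to 14 at times that could not be foreseen, and meanwhile the dam was made to swim for 5 min in water of 18°C or was restrained in a tube over 20 min. No transgene marked the cells: they were sorted from digested testis as diploid by Hoechst, large by forward scatter and high in MitoTracker signal, so a large diploid cell of another type could pass the same gates. Libraries of total RNA were made from 5 ng with 12 PCR cycles and read from 1 end over 100 bp.

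Spermatogonial stem cells lie at the base of the seminiferous tubule, where Sertoli cells and the surrounding peritubular, vascular and interstitial cells supply the signals that balance self-renewal against differentiation. GDNF, acting through GFRA1 and RET on the germ cell, is the best known self-renewal signal of this niche, and FGF2, FGF8, CSF1 and CXCL12 support the same stem cell pool through their own receptors. KIT ligand acts on differentiating spermatogonia that carry KIT, Wnt proteins act through Frizzled receptors and co-receptors such as ROR2 and RYK, and neuregulin 1 acts through the ERBB receptors.

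The 13 libraries held 12701776 to 18649945 counts, of which 9776853 to 14383367 fell on features with a gene name. Levels are given as CPM, the counts of a gene relative to all named counts of its library, after TMM scaling, a normalization for differences in library make-up, or as log2 CPM with a prior count of 2. In a library without any count of a gene, the limit that 0 counts allow (3 counts) was 0.204 to 0.323 CPM. This limit covers counting error only. The mean of 10 Sertoli cell markers was 8.97 ± 0.08 log2 CPM in CTRL (SD, n = 6) and 8.93 ± 0.08 in MSUS (SD, n = 7). It was the highest of the 10 marker lists on this scale, which takes no account of gene length. Per kilobase the lists were not ranked. The Sertoli markers had 9.63 to 9535 CPM per kilobase, *Clu* being the highest, and the 4 elongated spermatid markers had 319.6 to 988. In log2 CPM, markers of elongated spermatids followed at 7.90 ± 0.23 and 8.09 ± 0.46, although haploid cells should not pass a diploid gate. The paper proposes that such transcripts likely come from spermatid remnants that Sertoli cells took up. It also reports vimentin staining in most cells of the final gate. Where these transcripts came from was not tested here.

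*Kitl* was by far the most abundant of the ligands in both groups, followed by *Gdnf*, *Wnt4* and *Wnt3*, and the remaining 6 sat close to the limit of detection. Levels of different genes were ranked as CPM per kilobase, using the mean length of the annotated transcripts. On this scale *Kitl* had 94.8 ± 5.02 CPM per kilobase over all samples (SD, n = 13), a level above that of 91.4% of the genes tested. *Gdnf* had 3.24 ± 0.573 CPM per kilobase (SD, n = 13) and exceeded 24% of the genes tested, whose median level was 12.72 CPM per kilobase. Among the genes tested, which had all passed the count filter, the self-renewal signal thus stood below most and the differentiation signal above most. *Wnt4* had 1.64 ± 0.491 and *Wnt3* 0.670 ± 0.215 CPM per kilobase (SD, n = 13 for each). The other 6 ligands had means between 0.134 for *Nrg1* and 0.382 for *Fgf2*, again in CPM per kilobase.

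**Figure D1:**
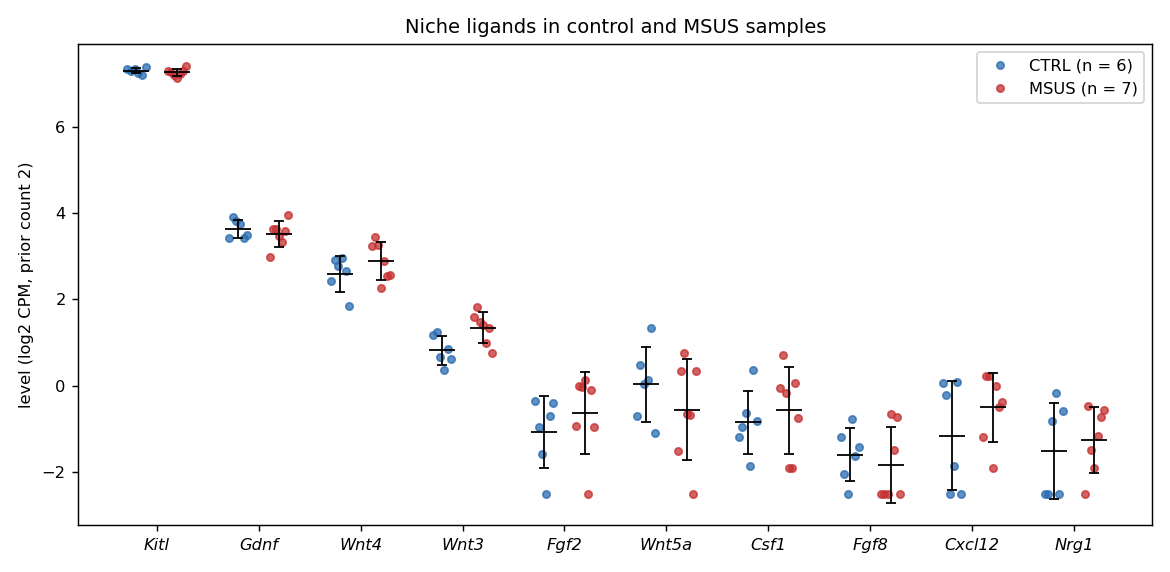
Level of each ligand in each sample, as log2 CPM with a prior count of 2 on the vertical axis, for 6 CTRL (blue) and 7 MSUS samples (red), with the group mean (horizontal line) and SD (bars). *Kitl* lies near 7.3 with little spread, *Gdnf*, *Wnt4* and *Wnt3* follow, and the points of the other 6 reach down to -2.52, the value of a sample with 0 counts; CTRL and MSUS points overlap for every ligand.

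The order of the first ligands held within animals. Neighbours were set by the means of the same 13 samples, so the sign of each mean difference was given in advance. The tests compare its size with the spread between samples. *Kitl* exceeded *Gdnf* by 4.87 ± 0.25 in log2 CPM per kilobase, in 13 of 13 samples (exact sign-flip permutation test, two-sided, adjusted p = 0.0011 over 9 pairs of neighbours). *Gdnf* exceeded *Wnt4* by 1.01 ± 0.52, in 12 of 13 samples (exact permutation test, adjusted p = 0.00146), and *Wnt4* exceeded *Wnt3* by 1.21 ± 0.45 in 13 of 13 (exact permutation test, adjusted p = 0.0011). *Wnt3* exceeded *Fgf2* by 0.63 ± 0.71, in 11 of 13 samples (exact permutation test, adjusted p = 0.00714). Below that, none of the 5 pairs of neighbours differed beyond the spread between samples (exact permutation tests, adjusted p from 0.111 to 0.835), so no order is read among the lowest 6. The distance of *Kitl* from the rest depends on the length used. With the longest annotated transcript (5648 bases for *Kitl*, against a mean of 1654), the mean CPM per kilobase of *Kitl* was 8.58 times that of *Gdnf*, and with the mean length it was 29.3 times. *Gdnf* has 1 annotated transcript, of 3674 bases. With the longest transcript *Kitl*, *Gdnf*, *Wnt4* and *Wnt3* kept their order, while *Fgf2* moved from rank 5 to rank 9.

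*Gdnf* (chromosome 15, 7810846 to 7837575 of GRCm38 in GENCODE vM21) encodes glial cell line-derived neurotrophic factor. In CTRL samples its lowest, median and highest levels were 10.5, 12.2 and 14.9 CPM, and in MSUS samples 7.71, 11.8 and 15.3 CPM. The MSUS range enclosed the CTRL range, with 1 MSUS sample above all controls (MSUS 26) and 2 below all of them, MSUS 1 being the lowest. The log2 fold change of MSUS against CTRL was -0.13 with an SE of 0.15 and a 95% confidence interval from -0.44 to 0.18 (limma voom, adjusted p = 0.925). The groups were therefore not separated, and the interval leaves room for a decrease or an increase of the size of its bounds. Without MSUS 1 the log2 fold change of *Gdnf* was -0.04.

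*Kitl* (chromosome 10, 100015630 to 100100416) was the steadiest of the ligands. Its levels were 149, 160 and 168 CPM in CTRL and 142, 155 and 172 CPM in MSUS (lowest, median and highest), from 1474 to 2322 counts per sample. MSUS 26 was the highest and MSUS 11 the lowest of all samples, so the controls lay inside the MSUS range here too. Its coefficient of variation over the 13 samples was 5.29%, against 17.7% for *Gdnf*, 30.0% for *Wnt4*, 32.1% for *Wnt3* and 76.8% for *Wnt5a*. Counting error alone would give 2.36%, 8.53%, 11.2%, 20.6% and 31.4% for these genes, so the spread of each exceeded its counting error. The log2 fold change of *Kitl* was -0.04 with an SE of 0.05 and a 95% confidence interval from -0.15 to 0.08 (limma voom, adjusted p = 0.942), the narrowest interval among the ligands tested.

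KIT ligand exists in a form that is shed and a form that stays in the membrane, and the membrane form is the one known to be required for spermatogenesis. They differ by a coding exon that holds the site at which the extracellular part is cut off. In GENCODE vM21 the longer full-length coding transcript of *Kitl* has 9 coding exons and the shorter 8, and the exon that the shorter one skips is coding exon 6, of 84 bases or 28 codons, on the + strand at chr10:100080857-100080940. It is shown because it is what the gene counts cannot resolve: reads of both forms are summed in the deposited value, so the levels above say nothing of their ratio.
Kitl coding exon 6: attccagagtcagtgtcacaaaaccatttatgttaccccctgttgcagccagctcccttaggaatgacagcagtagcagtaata

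Within a sample, the balance of the self-renewal and the differentiation ligand can be read as *Gdnf* minus *Kitl* in log2 CPM, a difference that does not depend on scaling between samples and is compared between groups only, since it is not per kilobase. It was -3.67 ± 0.22 in CTRL (SD, n = 6), from -3.92 to -3.40, and -3.76 ± 0.28 in MSUS (SD, n = 7), from -4.34 to -3.47. The groups overlapped, and MSUS was lower by a difference of -0.09 (exact permutation test over 1716 splits, two-sided, p = 0.582). The sign rested on MSUS 1, which had the lowest value of all, and without that sample the difference was 0.0091 (exact permutation test, p = 0.948).

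The ligands that support the stem cell pool beside GDNF were barely detected in these Sertoli cells. *Cxcl12* encodes the chemokine that guides and retains stem cells through CXCR4. It had 0 to 12 counts per sample in CTRL, with a median of 5.5, and 1 to 11 in MSUS, with a median of 7. *Fgf2* and *Fgf8* encode fibroblast growth factors. Median counts of *Fgf2* were 5.5 in CTRL and 7 in MSUS, and those of *Fgf8* were 2 and 0. *Fgf8* had 0 counts in 1 CTRL and 4 MSUS samples, and its total over all 13 libraries was 23 counts. *Csf1*, the macrophage growth factor that also acts on spermatogonia, had 1 to 15 counts in CTRL and 1 to 16 in MSUS. *Nrg1*, the ligand of the ERBB receptors, had 0 to 7 counts in CTRL, where 3 samples had none, and 0 to 6 in MSUS, where 1 had none. The groups overlapped for all 5 of these genes. A fit with no count filter gave log2 fold changes of 1.19 for *Cxcl12* (95% confidence interval -0.45 to 2.83), 0.79 for *Nrg1* (-0.99 to 2.58), 0.56 for *Fgf2* (-1.0 to 2.13), 0.25 for *Csf1* (-1.06 to 1.56) and -0.62 for *Fgf8* (-2.22 to 0.98). Every one of these intervals spanned 0 (limma voom, adjusted p from 0.929 to 0.966). The coefficients of variation of these 5 genes over the 13 samples, 65.6% to 106.6%, were above the 39.8% to 75.2% that counting error alone would give. In bulk samples such as these, fewer cells of a type and less RNA per cell cannot be told apart.

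Of the Wnt ligands, *Wnt3* and *Wnt4* had higher mean levels in MSUS and *Wnt5a* had a lower one. *Wnt3* (chromosome 11, 103774150 to 103817957) encodes a Wnt protein that signals mainly through beta-catenin. Its lowest, median and highest levels were 1.12, 1.51 and 2.18 CPM in CTRL and 1.52, 2.49 and 3.36 CPM in MSUS. All 7 MSUS samples lay above the CTRL median and 5 of them above every control, so the groups overlapped through only 2 MSUS samples, MSUS 13 at 1.81 CPM and MSUS 26 at 1.52 CPM. These levels rest on 11 to 32 counts per CTRL sample and 18 to 37 per MSUS sample. The log2 fold change was 0.53 with an SE of 0.26 and a 95% confidence interval from -0.01 to 1.08 (limma voom, adjusted p = 0.878). *Wnt3* was the ligand with the smallest p before adjustment, 0.0549 in limma voom, and it did not pass the test. That p lay on either side of 0.05 with other settings (0.0443 with edgeR's quasi-likelihood test, 0.0425 with DESeq2, 0.0207 without MSUS 26 and 0.113 without CTRL 14), and its adjusted p ranged from 0.631 to 0.997.

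*Wnt4* (chromosome 4, 137277489 to 137299726) encodes a Wnt protein that is required in the developing gonad. Levels were 3.40, 6.41 and 7.63 CPM in CTRL and 4.62, 7.24 and 10.7 CPM in MSUS (lowest, median and highest). MSUS 5, MSUS 6 and MSUS 1 were above all controls, CTRL 24 was below all other samples, and the remaining samples were mixed. Its log2 fold change was 0.28 with an SE of 0.22 and a 95% confidence interval from -0.19 to 0.75 (limma voom, adjusted p = 0.891). Without CTRL 24 it was 0.15. The estimated counts of *Wnt4* were not whole numbers (within 0.005) in 13 of 13 samples, as happens where Salmon, the tool of the authors, divides reads between features, and its level is less certain than that of *Kitl*, *Gdnf* or *Wnt3*, whose estimates were whole in every sample.

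*Wnt5a* (chromosome 14, 28504750 to 28527448), a Wnt ligand that acts largely without beta-catenin and through receptors such as ROR2, was the most variable of the ligands tested. CTRL samples had 0.292, 0.887 and 2.36 CPM (lowest, median and highest), MSUS samples 0, 0.462 and 1.52 CPM. CTRL 22 was the highest, with 32 of the 78 counts that the 6 controls held together, and MSUS 23 had 0 counts. The log2 fold change was -0.86 with an SE of 0.65 and a 95% confidence interval from -2.23 to 0.51 (limma voom, adjusted p = 0.890). It was -0.55 without CTRL 22 and -0.38 without MSUS 23. Peritubular myoid cells are a known source of niche ligands, and the mean level of their 6 markers is set beside *Wnt5a* for this reason. The list stood at 3.01 log2 CPM in CTRL 22, the highest of the controls. Among MSUS samples it was highest in MSUS 5 (3.55), MSUS 26 (2.92) and MSUS 6 (2.85), the same 3 samples that had the most *Wnt5a*. MSUS 23, without any count of *Wnt5a*, followed at 2.31, and CTRL 24, the control with the least *Wnt5a*, had the next highest list level among the controls at 2.08. Of the scarce ligands, *Csf1* and *Cxcl12* were also highest in such samples. *Fgf2* and *Fgf8* were instead highest in MSUS 11 (list at 1.30 log2 CPM) and *Nrg1* in CTRL 14 (1.46). *Csf1* had 16 counts in MSUS 5 and 15 in CTRL 22, and *Cxcl12* 12 in CTRL 22 and 11 in MSUS 5 and MSUS 6. Samples low in the list came close, with 10 counts of *Cxcl12* in CTRL 9 and CTRL 10 and 9 of *Csf1* in MSUS 1. With the list as a covariate the log2 fold change of *Wnt5a* was -1.17 (limma voom, adjusted p = 0.970). The estimated counts of *Wnt5a* were not whole in 8 samples.

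**Figure D2:**
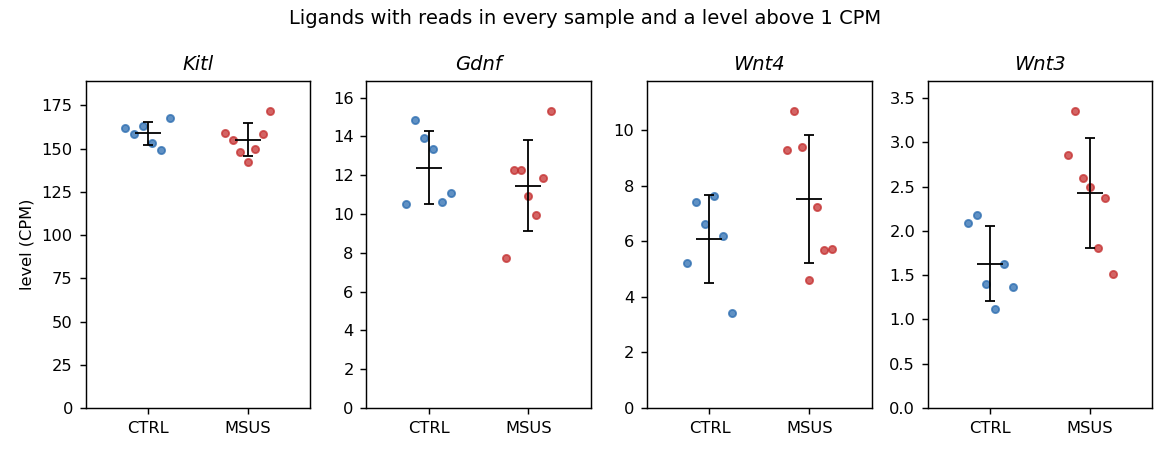
Level in CPM (vertical axes, each from 0) of *Kitl*, *Gdnf*, *Wnt4* and *Wnt3* in 6 CTRL (blue) and 7 MSUS samples (red), with the group mean (horizontal line) and SD (bars). For *Wnt3*, 5 of 7 MSUS samples lie above the highest control at 2.18 CPM, whereas the MSUS points of *Kitl* and *Gdnf* reach both above and below those of the controls.

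Over all genes, 781 of 14421, or 5.42%, had p under 0.05, with 3.02% higher and 2.4% lower in MSUS, and 0 had an adjusted p under 0.05 (limma voom). edgeR's quasi-likelihood test gave 793 and DESeq2 835 genes with p under 0.05, and 0 after adjustment in both. The lowest adjusted p in limma voom was 0.878. Of the 5 ligands tested, 0 had p under 0.05 in limma voom and 1, *Wnt3*, in each of the other tools. The median log2 fold change of these 5 was -0.04, beside 0.00 for all genes tested, with 2 positive and 3 negative values. Of all genes tested, 7141 had positive and 7280 negative values, the share to set beside the counts by direction below.

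No pair of the 4 most abundant ligands had a correlation that passed the test. For the 6 pairs among *Kitl*, *Gdnf*, *Wnt4* and *Wnt3*, the levels were centred within each group and correlated over the 13 samples. Pearson's r ran from -0.28 for *Gdnf* with *Wnt3* to 0.35 for *Wnt4* with *Wnt3* (permutation tests, adjusted p from 0.597 to 0.845 over the 6 pairs), and Spearman's rho from -0.25 to 0.41 (permutation tests, adjusted p = 0.712 for each). When the 2 samples farthest from the median were left out, r ran from -0.49 for *Kitl* with *Wnt4* to 0.56 for *Gdnf* with *Wnt4*. Centred in the same way, the genes most like *Gdnf* among 9534 compared were *Midn* (r = 0.909), *Tet3* (0.897) and *Stk40* (0.893). Those most like *Kitl* were *Sulf1* (r = 0.890), *Mmp14* (0.882) and *Jade1* (0.876). These r values, over 13 samples that share libraries and scaling, are the highest of all those compared and are given as a description.

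The start regions of the ligands differed in base composition. RefSeq promoter windows of GRCm38.p6, taken as the 250 bases before a start site, were matched for 7 ligands with 8 start sites, and *Fgf8*, *Wnt5a* and *Nrg1* were not matched. Each window was searched on both strands for a GC box (GGGCGG), for the letters of the TATA box (TATAAA) and for the core of a cAMP response element (TGACG), because *Gdnf* responds to follicle-stimulating hormone, which acts through cAMP. A GC box was found at 6 of the 8 start sites, beside 32.7% of all 32851 promoters, a TATA box at 2, beside 12.4%, and the TGACG core at 3, beside 17.8%. The CpG count of all 8 exceeded the median promoter's 6. The first *Gdnf* window, with 7 CpG, held no GC box but a TATA box and a TGACG core, whereas the *Wnt4* window, with 44 CpG, held 8 GC boxes, 5 of them in the 104 bases shown, and neither of the other motifs. The second *Gdnf* window, with 14 CpG, held no GC box, no TATA box and no TGACG core, so the contrast covers the first window only. A match describes these letters only, and nothing in the counts bears on binding. The sequences show the first *Gdnf* window, that of *Wnt4* and that of *Wnt3*, the ligand with the smallest p, with the motifs in capitals, all on the + strand. Those of *Wnt4* and *Wnt3* are cut where the annotated gene begins. The *Gdnf* window is shown whole and ends at 7810047, upstream of the annotated gene, which begins at 7810846.
Gdnf, chr15:7809798-7810047: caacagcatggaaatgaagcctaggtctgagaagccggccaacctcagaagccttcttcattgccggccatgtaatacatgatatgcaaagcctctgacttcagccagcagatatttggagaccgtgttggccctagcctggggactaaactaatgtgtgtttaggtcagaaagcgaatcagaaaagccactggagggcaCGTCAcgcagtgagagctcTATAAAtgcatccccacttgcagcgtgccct
Wnt4, chr4:137277385-137277488: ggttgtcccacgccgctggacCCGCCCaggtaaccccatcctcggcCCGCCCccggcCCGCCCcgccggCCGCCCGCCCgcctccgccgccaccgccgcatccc
Wnt3, chr11:103773925-103774149: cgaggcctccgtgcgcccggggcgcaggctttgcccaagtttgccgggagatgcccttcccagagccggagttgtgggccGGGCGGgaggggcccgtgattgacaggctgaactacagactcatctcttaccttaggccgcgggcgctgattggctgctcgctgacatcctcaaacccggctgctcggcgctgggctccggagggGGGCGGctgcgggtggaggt

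The receptors on which these ligands act fell into well detected ones and ones near 0. Of 28 receptors and co-receptors, 16 were tested, 5 with positive and 11 with negative log2 fold changes, a median of -0.02 and 0 with p under 0.05. Over all genes tested, 5.42% had p under 0.05. The germ cell receptors of the 2 main ligands were scarce. *Kit* had 162 counts over the 13 samples, *Gfra1* had 67 and *Ret* 56, and the last 2 did not pass the count filter. *Kit* stood at 0.27 log2 CPM in CTRL and 0.23 in MSUS, with a log2 fold change of -0.01. *Csf1r*, the receptor of CSF1 on macrophages, had 25 counts in all. In contrast, *Cxcr4* and *Ackr3*, the receptors of CXCL12, had 15.3 and 13.2 CPM per kilobase over all samples, against 0.155 for the ligand itself. *Fgfr1* had 16.1 CPM per kilobase and was the only one of the 4 FGF receptors to pass the filter. Among the Wnt receptors, *Ryk* had 28.2 and the co-receptor *Lrp6* 25.8 CPM per kilobase, 8 of the 10 Frizzled genes were tested, and *Ror1* and *Ror2* failed the filter. Of the ERBB receptors listed, *Erbb2*, *Erbb3* and *Erbb4*, only *Erbb4* passed the filter, with 7.05 CPM per kilobase, and its ligand *Nrg1* had 0.134. The largest absolute log2 fold change among the receptors was 0.13, for *Fzd1* (limma voom, adjusted p = 0.944).

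**Figure D3:**
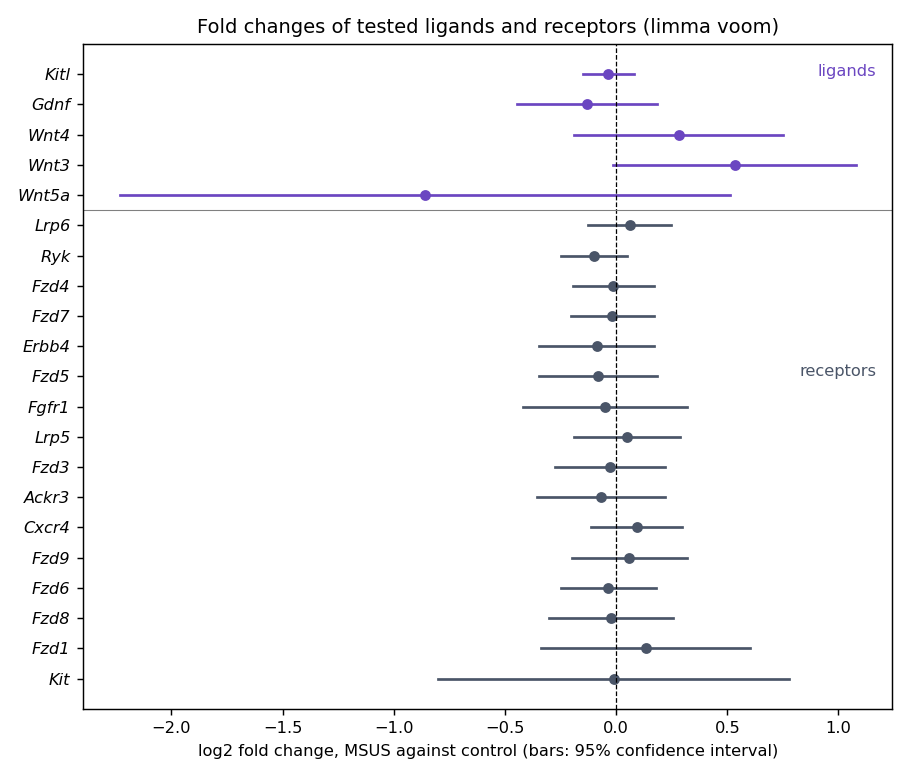
Log2 fold change of MSUS against CTRL (horizontal axis, points) with its 95% confidence interval (bars) from limma voom, for the 5 ligands tested (above the line) and the 16 receptors tested (below it, ordered by level). Every interval spans 0; that of *Kitl* is the narrowest among the ligands, from -0.15 to 0.08, and that of *Wnt5a* the widest, from -2.23 to 0.51.

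Other genes of the same pathways were read from the same fit. Of 134 listed genes that are not among the 10 ligands, 83 were tested and 0 had p under 0.05 in limma voom, edgeR's test or DESeq2. The share over all genes tested was 5.42% in limma voom. Among 33 further ligands, 12 were tested, 5 with positive and 7 with negative log2 fold changes and a median of -0.09. *Wnt6* stood at 6.0 ± 0.28 log2 CPM in CTRL and 5.75 ± 0.31 in MSUS, with a log2 fold change of -0.24 (limma voom, adjusted p = 0.878). Per kilobase, *Wnt6* had 39.7 CPM, the highest mean of this list and above the means of *Wnt4*, *Wnt3* and *Wnt5a*. The largest absolute log2 fold change in this list was -0.65 for *Nrg4*, a ligand of ERBB4, with an SE of 0.37 (limma voom, adjusted p = 0.878).

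Of 24 genes that process, release or bind the ligands, 20 were tested, with 13 positive, 7 negative and a median log2 fold change of 0.06. Levels of those tested ran from 0.418 to 340.5 CPM per kilobase, beside a median of 12.72 over all genes tested. *Wls*, of the same list, failed the count filter with 44 counts over the 13 samples. *Sdc4*, a heparan sulphate proteoglycan of the cell surface, had the highest level per kilobase (340.5 CPM per kilobase, with 9.16 log2 CPM in CTRL and 9.07 in MSUS), and *Pcsk5*, a proprotein convertase, had the largest absolute log2 fold change with 0.24 (limma voom, adjusted p = 0.935). Of 19 antagonists and feedback genes, 13 were tested, 5 with positive and 8 with negative values and a median of -0.03. The secreted Wnt antagonist *Frzb* had the highest level per kilobase (52.6 CPM per kilobase, with 6.72 log2 CPM in CTRL and 6.69 in MSUS), and *Rnf43*, which removes Frizzled receptors from the membrane, had the largest absolute log2 fold change with 0.43 (limma voom, adjusted p = 0.919). All 15 regulators of the ligands in Sertoli cells were tested, with 8 positive and 7 negative values and a median of 0.02. *Wt1*, a transcription factor of Sertoli cell identity, was the highest per kilobase with 181.8 CPM per kilobase and stood at 8.40 log2 CPM in CTRL and 8.45 in MSUS. *Heyl*, a target of Notch signalling, through which germ cells are known to lower *Gdnf*, had the largest absolute log2 fold change with 0.44 (limma voom, adjusted p = 0.923).

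Genes of the spermatogonia that receive these signals ranged from well detected to near 0. Of 15 spermatogonial genes, 7 were tested, 2 with positive and 5 with negative log2 fold changes and a median of -0.07. *Dmrt1*, which Sertoli cells also express, had the highest level per kilobase (75.6 CPM per kilobase, with 6.96 log2 CPM in CTRL and 6.89 in MSUS). *Id4*, listed as a gene of the stem cells, had 8303 counts over the 13 samples, and *Ddx4* and *Dazl*, which later germ cells also express, had 11871 and 3037. Which cells the *Id4* counts came from was not tested, and most other listed genes of early spermatogonia were near 0. *Bcl6b*, *Lhx1*, *Nanos2*, *Nanos3*, *Zbtb16*, *Sall4*, *Lin28a* and *Sohlh1* failed the count filter, with 3 counts for *Nanos3* to 103 for *Zbtb16*. *Pou3f1*, a gene that GDNF is known to induce in spermatogonia, had the largest absolute log2 fold change with -0.94 (SE 0.56, limma voom, adjusted p = 0.878).

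Marker lists of the other cell types that make niche ligands had means below that of the Sertoli list and differed between groups by less than the spread between samples. Single markers stood higher than these means. *Actg2* exceeded 64.14%, *Insl3* 64.45% and *Mrc1* 93.89% of the genes tested, beside 23.99% for *Gdnf*. The highest endothelial and lymphoid markers, *Pecam1* and *Il7r*, exceeded 48.73% and 12.51%. Peritubular myoid markers had a mean of 1.62 ± 0.85 log2 CPM in CTRL (SD, n = 6), from 0.63 to 3.01, and 2.15 ± 1.02 in MSUS (SD, n = 7), from 0.91 to 3.55, with *Actg2* the highest per kilobase (22.3 CPM per kilobase). All 5 tested genes of this list had positive log2 fold changes, with a median of 0.59. Among all 14421 genes tested, 7141 were positive. As markers of 1 cell type, the 5 genes are not separate signs. Leydig cell markers stood at 2.48 and 2.65 log2 CPM (*Insl3* the highest with 22.5 CPM per kilobase) and endothelial markers at 1.51 and 1.55 (*Pecam1* the highest with 12.05 CPM per kilobase). Macrophage markers stood at -0.16 and -0.12 log2 CPM, where *Mrc1* reached 121.8 CPM per kilobase while *Lyz2* had 0 counts in all 13 samples and *C1qa* 1 count. Lymphoid markers stood at -1.20 and -1.09 log2 CPM, with *Il7r* the highest (1.33 CPM per kilobase). Germ cell markers were higher, with spermatocyte markers at 6.03 and 5.91 (*Ldhc* the highest with 206.9 CPM per kilobase) and round spermatid markers at 2.99 and 3.09 (*Spaca1* the highest with 28.7 CPM per kilobase), while *Prm2* with 988.0 CPM per kilobase was the highest marker of elongated spermatids. The 1 marker gene with p under 0.05 before adjustment was *Sycp2* of the spermatocyte list, with a log2 fold change of -0.34 (limma voom, adjusted p = 0.878). Of all genes tested, 5.42% had p under 0.05 in the same fit. Exact permutation tests over all splits gave adjusted p-values of 0.873 to 0.875 for the 10 lists. With the peritubular myoid list as a covariate, the log2 fold changes were -0.15 for *Gdnf*, -0.04 for *Kitl*, 0.55 for *Wnt3* and 0.27 for *Wnt4*, and with the elongated spermatid list they were -0.08, -0.01, 0.49 and 0.25 and -0.77 for *Wnt5a* (limma voom, adjusted p from 0.649 to 0.978). The part of the other cell types in the levels of the ligands was not tested.

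**Figure D4:**
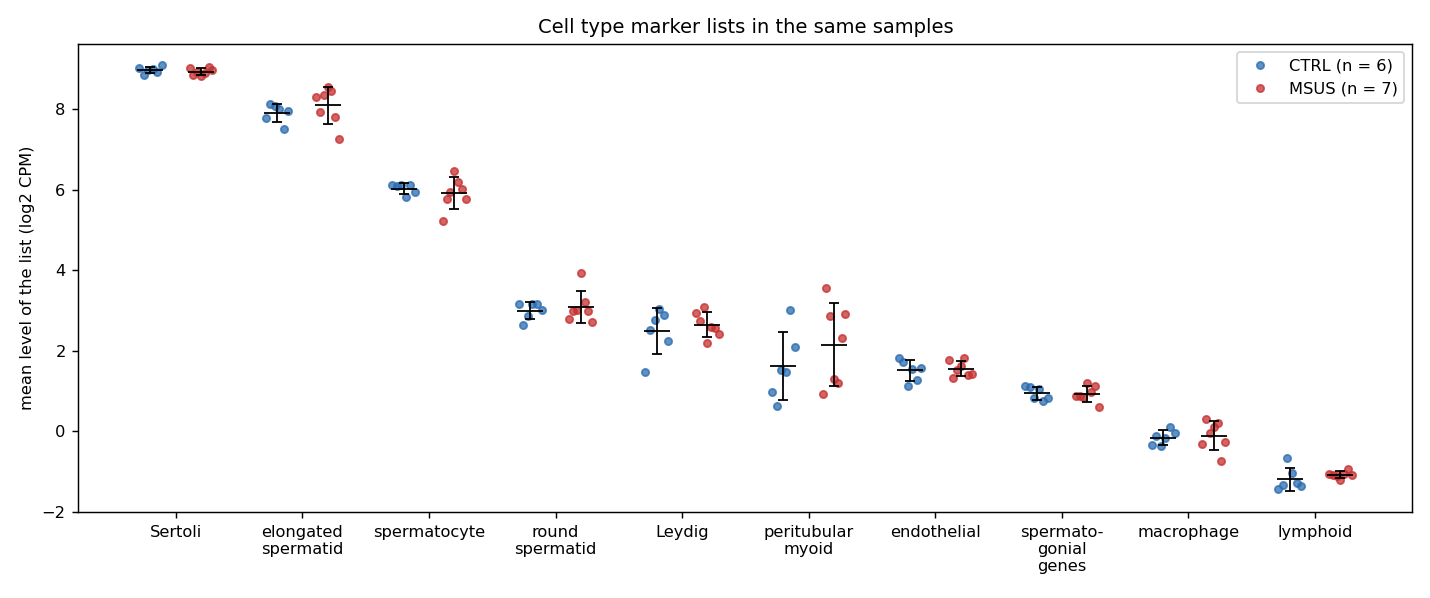
Mean level of each cell type marker list and of the spermatogonial genes in each sample (log2 CPM, vertical axis) for 6 CTRL (blue) and 7 MSUS samples (red), with the group mean (horizontal line) and SD (bars). On this scale, which is not per kilobase, Sertoli cell markers lie highest and vary least, near 9. The peritubular myoid list has the widest spread, from 0.63 to 3.55 over all samples.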

How the data were processed

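RNA of sorted Sertoli cells from 6 CTRL and 7 MSUS males was sequenced. The authors trimmed the reads with Trim Galore 0.6.5, assigned them to GENCODE vM23 transcripts with Salmon 1.1.0 and deposited estimated counts per gene without normalization. How transcripts were summed to genes is not given in the sources used here. Of 54281 features, 27170 had no gene name. They held 20.7% to 26.7% of the counts of a sample and entered neither library sizes nor tests. Every column was matched to a sample by its title.

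Estimated counts were rounded to whole numbers, scaled by TMM (edgeR 4.0.16, R 4.3.3) and fitted with limma 3.58.1 and voom over all named genes that passed filterByExpr, with group as the only term. The methods of the study state TMM, voom and limma, and give no model formula. P-values were adjusted by Benjamini-Hochberg across the whole fit. The scripts were tested on simulated data. edgeR's quasi-likelihood test, DESeq2 1.42.0, other scalings and filters, sample quality weights, marker covariates and leaving out each sample were alternatives. Single values were compared between groups by exact permutation of the samples, for which the smallest possible p is 0.00117. Neighbours in the order of levels were compared by exact sign flips, and correlations by random permutations. Each library was counted as its own sample by its title, and the 78 pairs of libraries differed by 4.27 to 11.4 times the sampling noise, so none was a copy of another. For all 10 ligands the coefficient of variation over the samples was above counting error.

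Lengths and positions come from GENCODE vM21 of GRCm38, which gave a length for 92.8% of the genes tested. Named genes were the 10 ligands, the receptors, and of each other pathway list the genes with p under 0.05, the highest level and the largest absolute log2 fold change, of each marker list the highest gene, and for each ligand above 3 log2 CPM the 3 genes most correlated with it. *Gfra1*, *Ret*, *Csf1r*, *Ror1*, *Ror2*, *Wls*, *Lyz2*, *C1qa*, *Sycp2*, *Id4*, *Ddx4*, *Dazl* and the spermatogonial genes that failed the filter were named after their values were seen. The ligands and lists were chosen with earlier results of these data known. The correlations between ligands, the levels without a prior count and the unfiltered values of scarce ligands were added after the data had been seen. Litter and cage were not analysed here.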

Additional observations from a re-analysis of the deposited data

Results flagged for a closer look

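In groups of 4 to 10 samples, a sample far from the others was searched for in 42 groups of values, and 2 were found, where chance alone gives about 1 in 20 groups, or 2.1. The mean level of the round spermatid markers in MSUS 11 was 3.92 log2 CPM, far above the other MSUS samples at 2.70 to 3.21. *Fgf2* in MSUS 13 stood at -2.52 log2 CPM, the value of 0 counts, far below the other MSUS samples at -0.97 to 0.13.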

How the results depend on the processing

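No adjusted p of a ligand was under 0.05 with any alternative, and none of the 5 tested ligands changed the sign of its log2 fold change. The ranges were -0.21 to -0.04 for *Gdnf*, -0.06 to -0.01 for *Kitl*, 0.45 to 0.65 for *Wnt3*, 0.15 to 0.39 for *Wnt4* and -1.17 to -0.38 for *Wnt5a*, which had no value when at least 1 CPM was required in at least 6 samples. The number of genes with p under 0.05 was 781, and it was 1182 of 23680 with no count filter, 1204 with the elongated spermatid markers as a covariate and 534 to 1121 when 1 sample was left out. Of the pathway genes, 0 of 83 had p under 0.05, against 2 with sample quality weights, 4 of 133 with no count filter, 4 with the elongated spermatid covariate and 0 to 4 when 1 sample was left out, the highest without MSUS 13. Over all genes, the same fits gave 1045 of 14421 with quality weights, 1182 of 23680 with no filter and 1204 of 14421 with the covariate. Without MSUS 13 it was 1023 of 14306. The cause was not tested for these. In the order of levels, 4 of 9 pairs of neighbours differed, also when any 1 sample was left out, and 0 in the 6 controls alone. With 6 samples the sign flips are so few that no adjusted p falls under 0.05 unless most of the 9 pairs reach the smallest possible p. The result in the controls therefore says nothing about the order. *Gdnf* minus *Kitl* differed by -0.14 to 0.0091 when 1 sample was left out, the sign turning without MSUS 1. When 1 sample was left out, the small differences between groups in marker lists ran from -0.041 to 0.273 for Leydig cells, -0.033 to 0.104 for endothelial cells, -0.024 to 0.153 for macrophages, -0.047 to 0.156 for round spermatids, -0.210 to 4.1e-05 for spermatocytes and -0.061 to 0.039 for spermatogonial genes, so their signs turned. No paired analysis was possible because the replicate numbers are animal numbers, and no number is shared between the groups.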
